A study of Oryza sativa Indica Group with 24 samples.

Results

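On day 59 after germination, when field drought had lasted 21 days, leaves of N22, an indica rice cultivar known to tolerate drought, were compared with leaves of well-watered plants of the same age. The comparison consists of 3 arrays, chosen by their label for that day from 24 arrays that cover 8 days. Each array set stressed leaves (second channel, Alexa 594) against control leaves (first channel, Alexa 488). All plants grew in field plots under a shelter that kept rain off. The mild plot was held at 60% of field capacity, which is the water a soil keeps after it has drained. The moderate plot was held at 40% and the severe plot at 15%, and the control plot stayed at 100%. There was 1 array per level, made from leaves pooled within a plot, so the 3 levels served as the only repeats of the day. The p-values measure the spread between these arrays and not between plots or plants. The labels do not say whether the 3 arrays shared their control RNA. Every array had the same dye orientation, so a constant dye bias and a response to stress cannot be told apart in a ratio of day 59 alone, while such a bias cancels in a difference between days. The labels name no growth stage for day 59. A word in the file headers calls it prebloom, and it lies between day 55, labelled as before anthesis, and day 63, labelled as after it.

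Plants that run short of water close their stomata, and the hormone abscisic acid carries much of the signal that changes gene expression. Protective proteins such as dehydrins and enzymes that make compatible solutes usually rise, while genes of photosynthesis and growth usually fall. In rice, the time around flowering is known as the stage at which drought costs most grain. Here the spots are complementary DNA clones known by the name printed on the array. None of the 7296 clone names occurred among 39387 genes of the rice reference table, so 0 clones could be tied to a gene. The label "leaf" therefore could not be checked against marker genes, and the clones are grouped below by direction, by size and by their course over the days. In tissue of this kind, fewer cells of a type and less RNA per cell cannot be told apart.

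Duplicate spots of a clone correlated at 0.929 on the mild, 0.887 on the moderate and 0.839 on the severe array. A spot counted as above the empty spots when its raw intensity passed the 95th percentile of theirs on the same array. Such signal was found at 7.37%, 34.9% and 14.2% of clone spots in the control channel of the mild, moderate and severe array. In the stress channel it was found at 22%, 53.7% and 28%. On all 3 arrays, 1365 of the 7296 clones were that bright in at least 1 channel, and 3386 were so on none. The mild array had the widest spread of log2 ratios, with an SD of 0.606, against 0.505 on the moderate and 0.428 on the severe array.

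Stressed and control leaves differed at 541 of 7296 clones on day 59 (7.42%), by limma's moderated test of the 3 log2 ratios against 0 at an adjusted p under 0.05. Of these, 338 were higher under stress (4.63%) and 203 were lower (2.78%), and each of them had the same sign on all 3 arrays. The measured ratios ran further on the higher side. The measured ratio of the higher clones had a median of 1.87-fold and reached 7.08-fold, with 126 clones at 2-fold or more and 13 at 4-fold or more. The lower clones had a median of 1.76-fold and reached 3.53-fold, with 54 at 2-fold or more and 0 at 4-fold or more. Ratios of 2-fold or more on each of the 3 arrays were seen for 45 higher and 22 lower clones. The median log2 ratio of all clones was -0.01. The split of the calls depended on how the arrays were centred: with each array set to its median in place of a loess curve over brightness, 654 clones were higher and 110 lower. The number of calls was 192 without the severe array, 285 without the moderate one and 561 without the mild one, and 148 when the spread was estimated over the arrays of all days. It was 866 without background correction.

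Measured against the empty spots, the control channel was dim for most of the clones that rose, and for most clone spots on these arrays. Of all clone spots, 7.37%, 34.9% and 14.2% lay above the empty spots there on the mild, moderate and severe array. In raw intensity the control channel was the brighter one, with medians over clone spots of 5557, 4967 and 3443, against 1417, 898 and 704 in the stress channel. Of the 338 higher clones, 225 had no control spot above the empty spots on any of the 3 arrays, and 26 of these had no stress spot above them either. For the other 199 the measured ratio has no firm denominator. A bound was therefore computed by setting the control signal no lower than that percentile. This bound lay above 1-fold for 33 higher clones and reached 3.28-fold. Among the 203 lower clones, 78 had no stress spot above the empty spots on any array, and 67 of these had no control spot above them either. Of all clone spots, 22%, 53.7% and 28% lay above them in the stress channel. The same counts were not made over all clones, so dimness is not read as a trait of the called clones.

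Clone NL12_H05 had the smallest adjusted p of all clones, at 0.002355. Its log2 ratio of stress over control was 2.78 on the mild, 2.87 on the moderate and 2.57 on the severe array. The normalised control intensities behind these ratios were 5689, 6778 and 8392, and the stress intensities were 39199, 49413 and 49881. All 3 stressed samples lay far above all 3 controls, which follows from the ratios that chose this clone. The mean of NL12_H05 was 2.74 ± 0.15 (SD, n = 3), or 6.68-fold. Its control spots lay above the empty spots on 2 of the 3 arrays.

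The highest mean belonged to NL_9_68, with log2 ratios of 3.01, 2.38 and 3.09 under mild, moderate and severe stress (mean 2.82 ± 0.39, SD, n = 3; adjusted p = 0.00347). Its control intensities of 1506, 2323 and 1060 were not above the empty spots on any array, while its stress intensities were 12096, 12060 and 9031, so that it stood at least 2.33-fold higher under stress. NL53_H08 gave 2.39, 2.65 and 2.07 (mean 2.37 ± 0.29, SD, n = 3; adjusted p = 0.00347), and its bound of at least 3.28-fold was the largest among the clones described here. The measured ratios of these first 3 clones were nearly level across the depths of drought. NL24_E12 was less even, at 2.53, 3.66 and 2.03 (at least 2.36-fold; adjusted p = 0.0102). NL_17_67 stood at 1.72 on the mild, 2.97 on the moderate and 3.43 on the severe array (at least 1.93-fold; adjusted p = 0.0114). The measured ratio of NL32_H10 ran the other way, at 3.93 under mild against 1.83 and 1.82 under moderate and severe stress (adjusted p = 0.0213). For NL32_H10, whose stress intensities were 4328, 4495 and 4258, no bound above 1-fold could be given. Control intensities were 284, 1260 and 1202 for NL32_H10 and 3351, 997 and 811 for NL_17_67, not above the empty spots on any array. The stress intensities of NL_17_67 were 11001, 7803 and 8758. The order of the levels in both clones thus depends on control signal that was not above the empty spots.

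NL10_E10 read 3.09, 2.58 and 1.72 (at least 2.78-fold), and NL47_B12 read 2.53, 1.70 and 1.66 (at least 2.57-fold). Both were highest under mild stress. NL45_E10, whose control was above the empty spots on 1 array, read 3.05, 1.79 and 2.20. NL_6_77 read 1.73, 1.85 and 2.28 (at least 1.73-fold), and NL19_A07 read 1.62, 2.97 and 1.46 (at least 1.93-fold). NL10_C05 read 2.31, 2.43 and 1.49, with no bound above 1-fold. The adjusted p-values of these 6 clones ran from 0.00644 for NL_6_77 to 0.0175 for NL19_A07. The 12 clones above kept their direction and passed the test under each of the 11 other settings tried for this comparison. They were chosen for large ratios of 1 sign on all 3 arrays, so leaving out, weighting or scaling arrays could not turn their direction. All 12 needed the stress channel, in which they are high, to meet the brightness condition on all 3 arrays. Control spots met it on 2 arrays for NL12_H05, on 1 for NL45_E10 and on none for the others.

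The 12 lower clones with the lowest means, picked among the bright clones, were above the empty spots in both channels on all 3 arrays. NL40_G01 had log2 ratios of -1.87, -1.99 and -1.60 under mild, moderate and severe stress. Its control intensities of 12137, 14227 and 10315 stood against stress intensities of 3325, 3582 and 3392. These intensities come from the ratios that chose the clone, so the gap between the groups is no separate evidence. The mean of -1.82 ± 0.20 (SD, n = 3) corresponds to 3.53-fold less signal under stress (adjusted p = 0.00644). NL6_G11 stood at -2.15, -1.63 and -1.64 (3.50-fold less; adjusted p = 0.00933), and NL6_E07 at -2.14, -1.32 and -1.49 (3.14-fold less; adjusted p = 0.013). Both were lowest under mild stress. NL27_G09 stood at -2.10, -1.42 and -1.61 (3.27-fold less), with a saturated spot on 1 array.

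NL41_F12 read -1.34, -1.77 and -1.52 (mean -1.55 ± 0.21, SD, n = 3), from control intensities of 42364, 49183 and 46362. NL51_E10 was the most even of the 24 clones named for their size, at -1.41, -1.47 and -1.33, an SD of 0.07. NL_20_74 read -1.50, -1.53 and -1.17, and NL50_A09 read -1.30, -1.79 and -1.04. The last 4 of the 12 were NL40_A09, NL47_B10, NL32_F08 and NL39_D04, whose means ran from -1.35 to -1.30. Adjusted p-values of the 12 ran from 0.00644 to 0.0154. Without the loess curve, by median centring, the means of NL39_D04, NL47_B10, NL41_F12, NL32_F08 and NL_20_74 moved to between -0.03 and -0.33, and NL27_G09 and NL50_A09 moved to -0.54 and -0.52. These 7 then missed the threshold, with adjusted p-values from 0.11 to 0.929. With the spread taken over all days, NL51_E10, NL32_F08 and NL39_D04 missed it, at 0.0773, 0.109 and 0.0661.

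**Figure D1:**
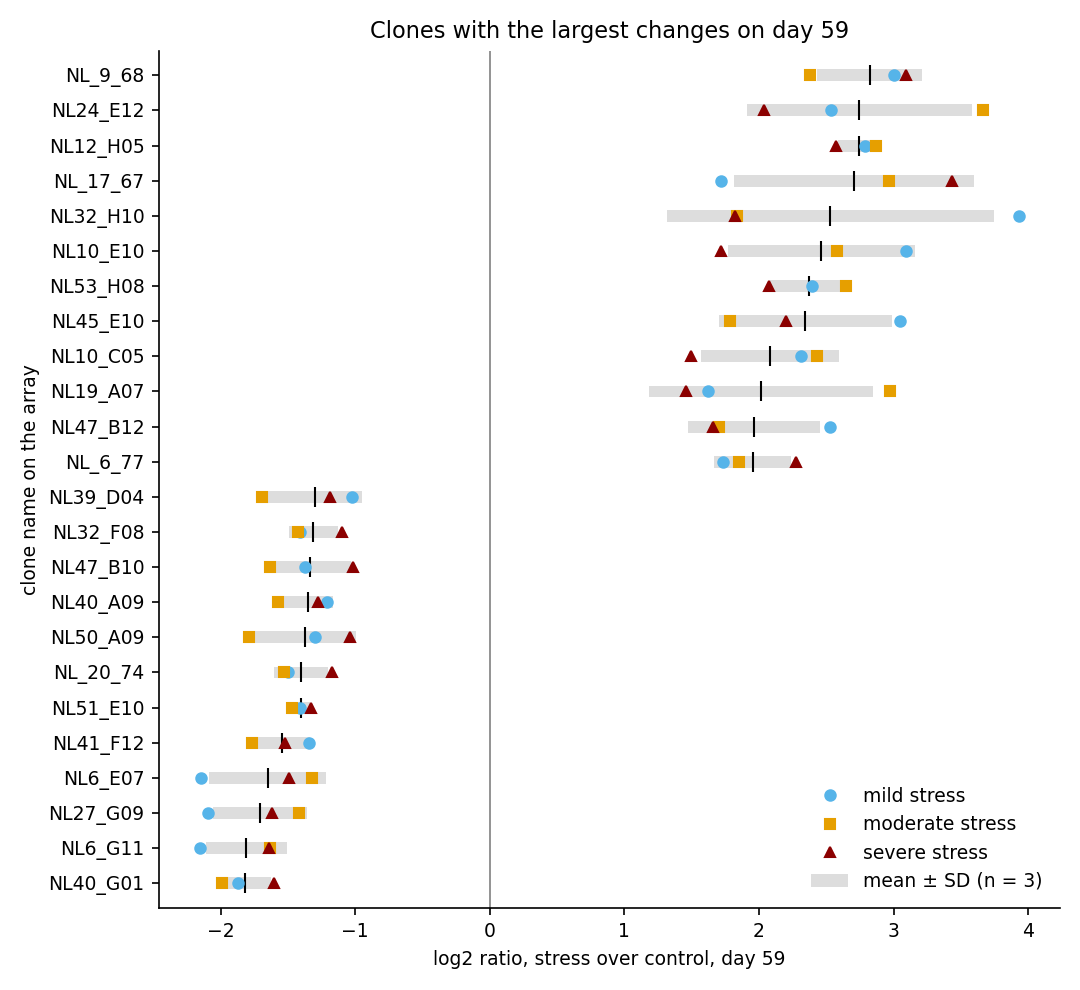
Log2 ratio of stress over control on day 59 (horizontal axis) for the 12 highest and 12 lowest called clones that were brighter than the empty spots; symbols are the mild, moderate and severe array, ticks the means and grey bars the mean ± SD (n = 3). NL12_H05 (2.78, 2.87 and 2.57) and NL51_E10 (-1.41, -1.47 and -1.33) have nearly coincident symbols, whereas NL32_H10 runs from 1.82 to 3.93, over control spots not above the empty ones.

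The 4 brightest called clones had smaller ratios than the clones above. NL14_B05 had control intensities of 46088, 46309 and 48883 and stress intensities of 24119, 19746 and 27212, a mean log2 ratio of -1.00 ± 0.20 (SD, n = 3; adjusted p = 0.0196). NL15_A07 averaged -0.87 (adjusted p = 0.0323) and NL49_F06 averaged -0.82 (adjusted p = 0.0378). All 3 turned positive under median centring, at 0.44, 0.66 and 0.59, short of the threshold, so their direction holds only relative to clones of like brightness. NL6_F03 rose by 0.96, 0.42 and 0.82 (mean 0.73; adjusted p = 0.046) and stayed positive under median centring. Its adjusted p was under 0.05 in 5 of the 11 other settings. Without the moderate array the adjusted p of all 4 lay between 0.051 and 0.0922. Without the severe array it was 0.08 for NL15_A07, 0.124 for NL49_F06 and 0.135 for NL6_F03, and without the mild array 0.075 for NL6_F03. With the spread taken over all days all 4 missed the threshold, at 0.0613 for NL14_B05, 0.137 for NL15_A07, 0.358 for NL49_F06 and 0.275 for NL6_F03. Calls were more frequent among bright clones. Of the brightest 2432 clones, 171 were higher and 114 lower (11.7%), against 30 higher and 61 lower of the dimmest 2432 (3.74%).

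No growth of the response with the depth of the drought was detected on this day. A log2 ratio of at least 1 in either direction was reached by 9.07% of clones on the mild, 5.41% on the moderate and 2.67% on the severe array. With the arrays scaled to the same spread these shares became 5.46%, 7.84% and 7.28%, and the order of the levels was no longer the same. Among the 338 higher clones, the median log2 ratio was 1.02 on the mild, 0.88 on the moderate and 0.82 on the severe array. The mild array gave the largest of the 3 ratios for 51.8% of them, and for 38.8% of all clones. Among the 203 lower clones the medians were -0.90, -0.86 and -0.77, and the moderate array gave the lowest ratio for 44.8% of them, and for 33.3% of all clones.

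A slope of the log2 ratio on field capacity was called for 0 of 7296 clones (0%) in limma, in either direction, with a smallest adjusted p of 0.869. Before adjustment 399 slopes had a p under 0.05 (5.47%), 228 positive and 171 negative. The smallest p-values belonged to NL30_G04, NL42_G06 and NL34_H06. NL30_G04 read 1.53, 0.51 and -0.52 from mild to severe stress, a slope of 0.45 per 10 points of field capacity. NL42_G06 read 1.56, 0.25 and -0.56, and NL34_H06 read 0.89, 0.25 and -0.89. All 3 fell from mild to severe stress, and none was above the empty spots on more than 1 array in either channel. With 3 arrays the fit leaves 1 residual degree of freedom per clone beside the spread shared over clones, so slopes may have gone undetected.

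On arrays that the call did not use, the higher clones of day 59 had negative medians on day 55, and both lists had the sign of day 59, closer to 0, on day 63. The 338 higher clones had median log2 ratios of -0.74, -0.54 and -0.33 on day 55 under mild, moderate and severe stress. On day 59 the medians were 1.02, 0.88 and 0.82, and on day 63 they were 0.09, 0.32 and 0.42. By the mean of the levels, 44 of the 338 lay above 0 on day 55 (13%) and 281 on day 63 (83.1%), where 52.3% and 49.3% of all clones did. A mean below 0 on day 55 together with 1 above 0 on day 63 was found for 245 of the 338. The share of all clones with both was not counted. On days 67, 71 and 75 their medians were negative again, at -0.30, -0.37 and -0.20. The 203 lower clones lay on both sides of 0 on day 55, with medians of 0.25 on the mild, 0.07 on the moderate and -0.20 on the severe array. By the mean of the levels, 112 of the 203 lay above 0 on day 55 (55.2%), against 52.3% of all clones. On day 63 their day means had a median of -0.33, and 36 of them lay above 0 (17.7%). Their median was -0.24 on day 67 and 0.04 on day 75. Over all 7296 clones the day means had an SD of 0.292 on day 63 against 0.428 on day 59. By array, the SD on day 63 was 0.243 (mild), 0.345 (moderate) and 0.549 (severe), against 0.606, 0.505 and 0.428 on day 59. The severe array was thus the wider one on day 63. Duplicate spots of its mild array correlated at 0.726. The values of day 59 also chose both lists, so medians closer to 0 on day 63 are not read as a trait of the called clones.

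Across all 7296 clones, the mean log2 ratios of day 59 correlated with those of day 63 at Pearson's r = 0.548 and with those of day 55 at -0.331. With a separate curve for each print block these values were 0.428 and -0.159. They describe clones on a few arrays, and clones are not independent replicates. The dye orientation is common to all days. Days 59 and 63 share the quantification session named in the file headers, and day 55 was quantified in the other of the 2 sessions. Days 67 and 71 belong to the session of day 59 too, and their correlations with it were -0.14 and -0.09. The part of the session was not tested. Correlations with the remaining days ran from -0.231 on day 75 to 0.153 on day 45. The value of day 45 was -0.107 with a curve per print block, -0.031 with median centring and -0.092 among the bright clones, where that of day 52 turned from -0.218 to 0.168.

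**Figure D2:**
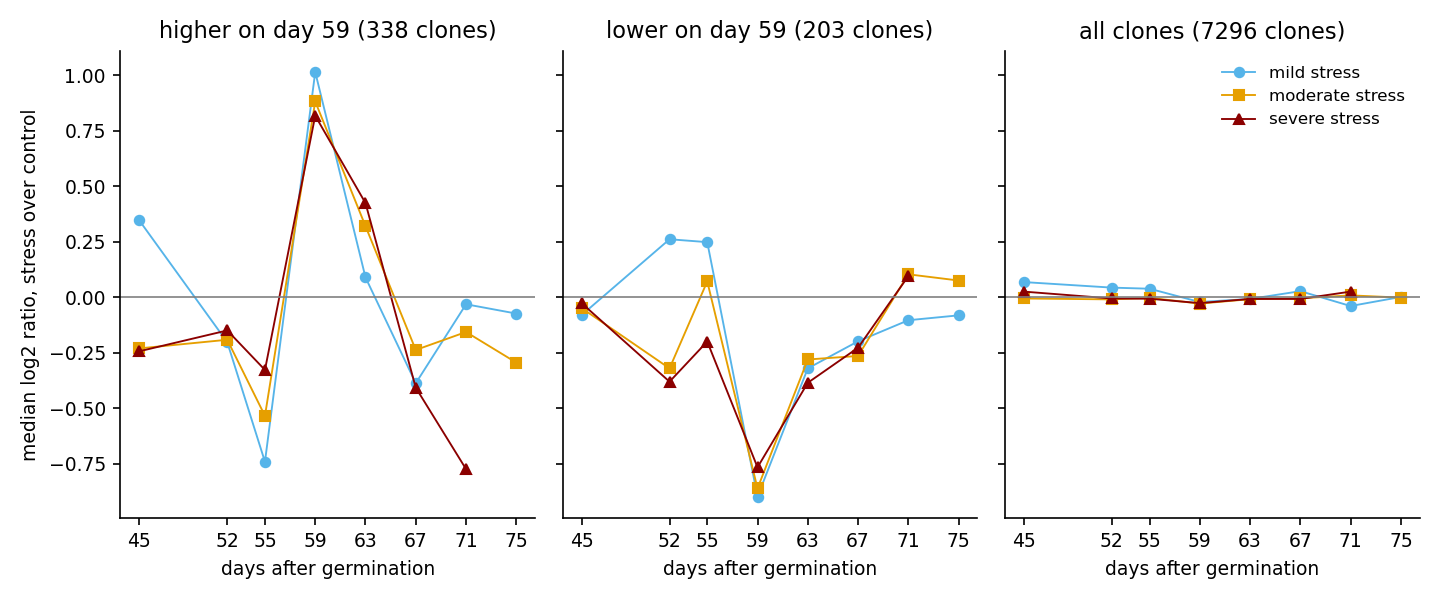
Median log2 ratio of stress over control (vertical axis) by day after germination for the 338 higher clones, the 203 lower clones and all 7296 clones; each point is 1 array, and lines join the arrays of a stress level. The higher clones fall to -0.74 under mild stress on day 55 and reach 1.02 on day 59, and all clones stay near 0; the values of day 59 chose the first 2 lists.

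Set against the mean of the other 7 days, day 59 differed at 698 of 7296 clones (9.57%), 623 higher (8.54%) and 75 lower (1.03%), in a limma fit of 23 arrays with day and stress level as factors. The clones higher on day 59 had a median log2 ratio of 0.70 on that day and -0.56 over the other days. The lower ones had -0.77 and 0.25. Of the 623 higher clones, 243 were also called higher against control on day 59, and of the 75 lower ones 45 were called lower. Among all clones these calls made up 4.63% and 2.78%. Both comparisons use the same ratios of day 59, so an overlap is built in and is no separate evidence. The 623 had medians of -0.891, -0.606 and -1.725 on day 71 under mild, moderate and severe stress, and 0.024, 0.184 and 0.155 on day 63. The difference thus holds low ratios of other days as well as high ratios of day 59. The median difference of all clones was -0.03. The split was 480 higher and 170 lower with a curve per print block, and 949 and 287 with arrays scaled to 1 spread. It was 941 and 648 in the authors' deposited value table, by another test. There the values of day 59, centred per spot within a stress level, were set against 0. The last rows of print blocks were left out, and 591 of the 698 clones were covered. On the mild array of day 45, 8684 control spots and 11546 stress spots were at or above the limit used to count saturated spots. Its median intensities over clone spots were 77820 in the control and 98360 in the stress channel. Both lay above that limit, so values were not cut off there and the count does not show saturation. That array had an SD of log2 ratios of 1.01. It entered the mean of the other days, and the spread used for all contrasts between days. Without it 847 clones differed, 685 higher and 162 lower, among them 694 of the 698. Within the quantification session of day 59 the count was 691, of which 511 were among the 698. The count fell to 175 without the mild, 366 without the moderate and 248 without the severe array of day 59, and to 0 (515 at an unadjusted p under 0.05) when each day counted as 1 value.

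The 6 clones furthest above the other days had been among the highest on day 59, and all of them lay below 0 on day 67. Day 67 is among the days that day 59 was set against, so its low values helped to choose these clones, and the values of the other days are given as a description. NL_17_67 read 1.72, 2.97 and 3.43 on day 59 and -2.67, -1.25 and -1.56 on day 67 under mild, moderate and severe stress. NL_9_68 read -3.11, -1.91 and -1.25 on day 67, and NL24_E12 read -2.40, -1.68 and -1.36. The 3 stressed samples of day 67 lay below their controls in each of these clones. NL12_H05 read -0.78, -2.29 and -2.24 on day 67, NL53_H08 read -1.55, -2.20 and -2.01, and NL32_H10 read -2.65, -1.00 and -0.53. On day 63 the same 6 clones lay between -0.31 and 0.61 on every array. NL53_H08 was low on day 71 too, at -2.29, -1.59 and -2.46.

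The differences from the other days, with standard errors from the fit, were 3.14 ± 0.42 for NL_17_67, 3.09 ± 0.38 for NL_9_68, 3.04 ± 0.37 for NL24_E12, 2.99 ± 0.40 for NL32_H10, 2.95 ± 0.37 for NL12_H05 and 2.90 ± 0.30 for NL53_H08. Their adjusted p-values ran from 8.8e-06 for NL53_H08 to 0.000102 for NL32_H10. Day 59 was not the only day with a high ratio in all of them. Under mild stress on day 52, NL12_H05 read 2.95, NL_9_68 read 2.00, NL_17_67 read 1.89 and NL24_E12 read 1.13, while their moderate and severe arrays of that day lay between -0.58 and -0.10.

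**Figure D3:**
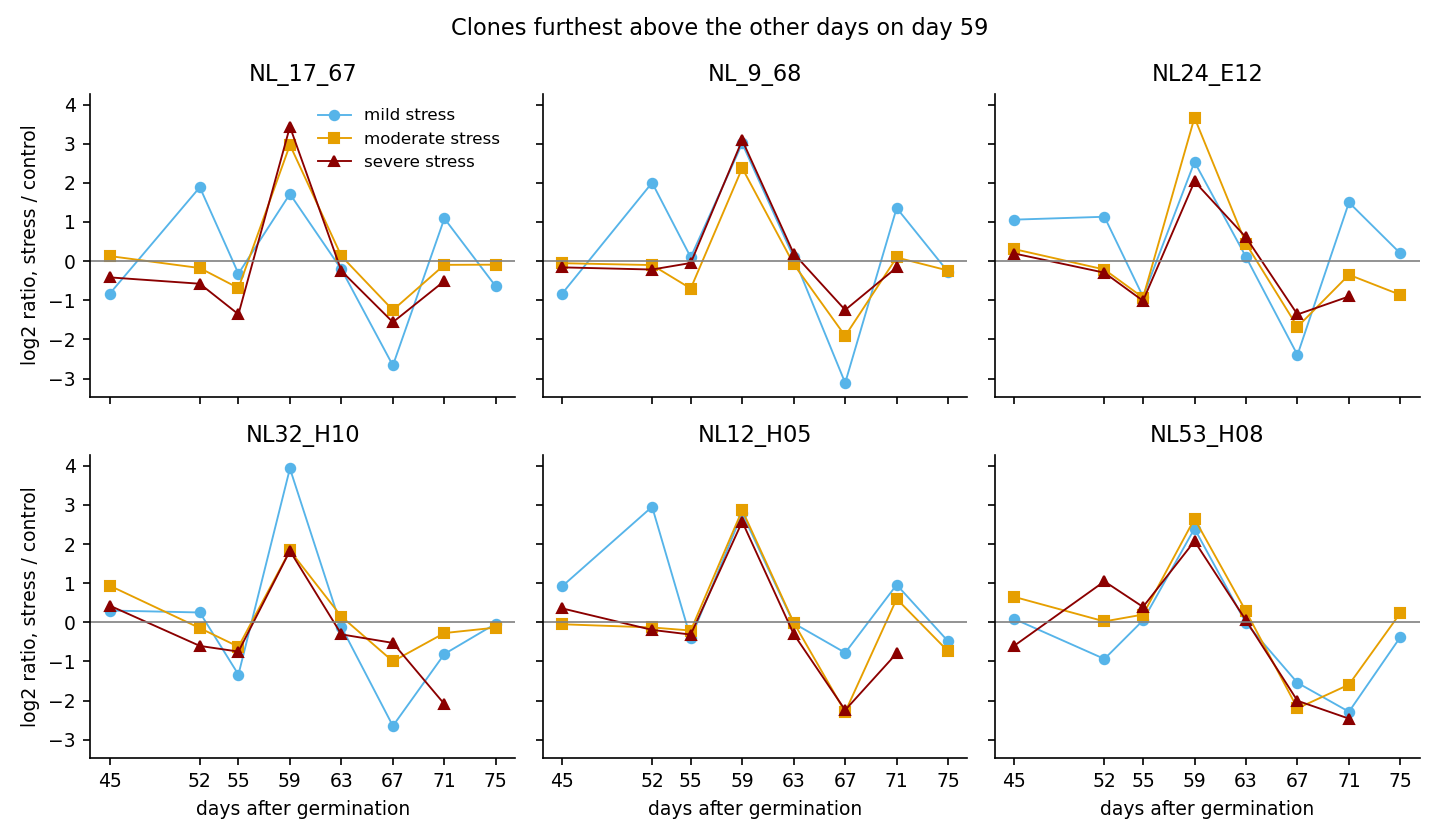
Log2 ratio of stress over control (vertical axis) by day after germination for the 6 clones furthest above the other days on day 59; each point is 1 array, and lines join a stress level. All 6 are at 1.72 or more on each array of day 59, near 0 on day 63 and below 0 on day 67, where NL_9_68 reaches -3.11 under mild stress.

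The 6 clones furthest below the other days fell into groups by their state on day 55. NL_20_74 read 1.20, 0.64 and 1.56 on day 55 and -1.50, -1.53 and -1.17 on day 59 (difference from the other days -1.84 ± 0.30, SE; adjusted p = 0.00101). NL14_D06 read 1.04, 1.04 and 0.38 on day 55 and -1.01, -1.14 and -1.33 on day 59 (-1.65 ± 0.27, SE; adjusted p = 0.00108). NL21_F10 read 1.07, 0.94 and 0.84 on day 55 and -0.57, -0.80 and -1.36 on day 59 (-1.38 ± 0.32, SE; adjusted p = 0.00779). These 3 clones were above their controls on all arrays of day 55 and below them on all arrays of day 59. NL6_G11 and NL6_E07 were low on both days: NL6_G11 read -2.09, -1.61 and -0.94 on day 55, and NL6_E07 read -1.78, -2.04 and -1.10. Their differences from the other days were -1.82 ± 0.31 and -1.77 ± 0.42 (SE). NL41_F12 stood between, at 0.23, -0.38 and -0.28 on day 55, with a difference of -1.52 ± 0.42 (SE; adjusted p = 0.0219). NL41_F12 missed the threshold without any 1 array of day 59 (adjusted p from 0.0983 to 0.142), NL6_E07 without the mild (0.147) or the severe array (0.066), and NL21_F10 without the severe array (0.145). By median centring the differences of NL_20_74, NL14_D06, NL21_F10 and NL41_F12 were -0.64, -0.70, -0.77 and -0.03, and these clones missed it. In the authors' deposited value table, where the values of day 59 were tested against 0, NL_20_74 (-0.35), NL21_F10 (-0.48) and NL41_F12 (-0.03) missed it as well.

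Between day 55 and day 59, over 4 days of further drought, 869 of 7296 clones differed (11.9%), 735 higher (10.1%) and 134 lower (1.84%) on day 59. The higher clones went from a median log2 ratio of -1.24, -1.02 and -0.84 on day 55 under mild, moderate and severe stress to 0.70, 0.61 and 0.49 on day 59. The difference was positive within each of the 3 levels for 730 of the 735, and for 2162 of all 7296 clones. The lower clones went from 1.04, 0.66 and 0.38 to -0.74, -0.59 and -0.45. The values of these 2 days chose both lists, so their medians and counts are a description. The counts were 375 higher and 190 lower with a curve per print block, and 1116 and 444 with arrays scaled to 1 spread. Leaving out the mild, moderate or severe array of day 59 gave 404, 533 and 518 calls, and leaving out the mild arrays of both days gave 167. Day 55 and day 59 were quantified in different sessions, so day and session cannot be told apart here.

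NL24_E12 showed the largest rise between the 2 days, from -0.91, -0.93 and -1.01 to 2.53, 3.66 and 2.03, a difference of 3.70 ± 0.49 (SE; adjusted p = 0.000258). NL25_F05 went from -2.58, -2.55 and -2.17 to 1.55, 0.69 and 1.08 (3.54 ± 0.55, SE; adjusted p = 0.000334). NL35_A09 went from -2.52, -2.20 and -2.65 to 1.42, 0.67 and 1.03 (3.50 ± 0.50, SE; adjusted p = 0.000258). The last 2 clones were close to each other on all 6 of these arrays, and both were low again on day 71, at -2.96, -1.68 and -3.20 for NL25_F05 and -2.90, -1.95 and -3.89 for NL35_A09. On day 59 their stress spots lay above the empty spots on 1 of 3 arrays and their control spots on none. The 3 largest falls were those of NL_20_74 (-2.53 ± 0.39, SE; adjusted p = 0.000334), NL14_D06 (-1.98 ± 0.36, SE; adjusted p = 0.00106) and NL21_F10 (-1.86 ± 0.42, SE; adjusted p = 0.00594). These falls were -1.13, -0.87 and -1.12 by median centring and missed the threshold there, with adjusted p-values of 0.0523, 0.123 and 0.0721. NL21_F10 also missed it without the severe array of day 59, at 0.0531, and without the mild arrays of both days, at 0.0511.

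Between day 59 and day 63, 3 of 7296 clones differed (0.0411%), all 3 higher on day 59 (0.0411%) and 0 lower (0%) by limma, with 288 clones under 0.05 before adjustment, 193 of them higher and 95 lower. The standard error of the difference had the same median, 0.37, as that between days 55 and 59. This follows from the fit, which gives each clone 1 spread for all days, so it does not compare the spread of day 55 with that of day 63. The 3 clones were NL12_H05, NL_9_68 and NL53_H08, described above for day 59 alone. NL12_H05 went from 2.78, 2.87 and 2.57 on day 59 to -0.03, -0.01 and -0.30 on day 63 (2.85 ± 0.49, SE; adjusted p = 0.0272). NL_9_68 went to 0.10, -0.08 and 0.19 (2.75 ± 0.50, SE; adjusted p = 0.0386). NL53_H08 went to -0.02, 0.28 and 0.05 (2.27 ± 0.39, SE; adjusted p = 0.0272). In each of them the 3 values of day 63 lay near 0 and apart from those of day 59, a difference by which these clones were chosen. With a curve per print block 16 clones were higher and 5 lower, and with arrays scaled to 1 spread 23 and 7. The 3 calls rest on all 3 arrays of day 59: 0 clones were called without the moderate or without the severe array, and 2 without the mild one, of which NL12_H05 was 1. Without stress level in the fit the adjusted p of NL12_H05 was 0.0624.

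**Figure D4:**
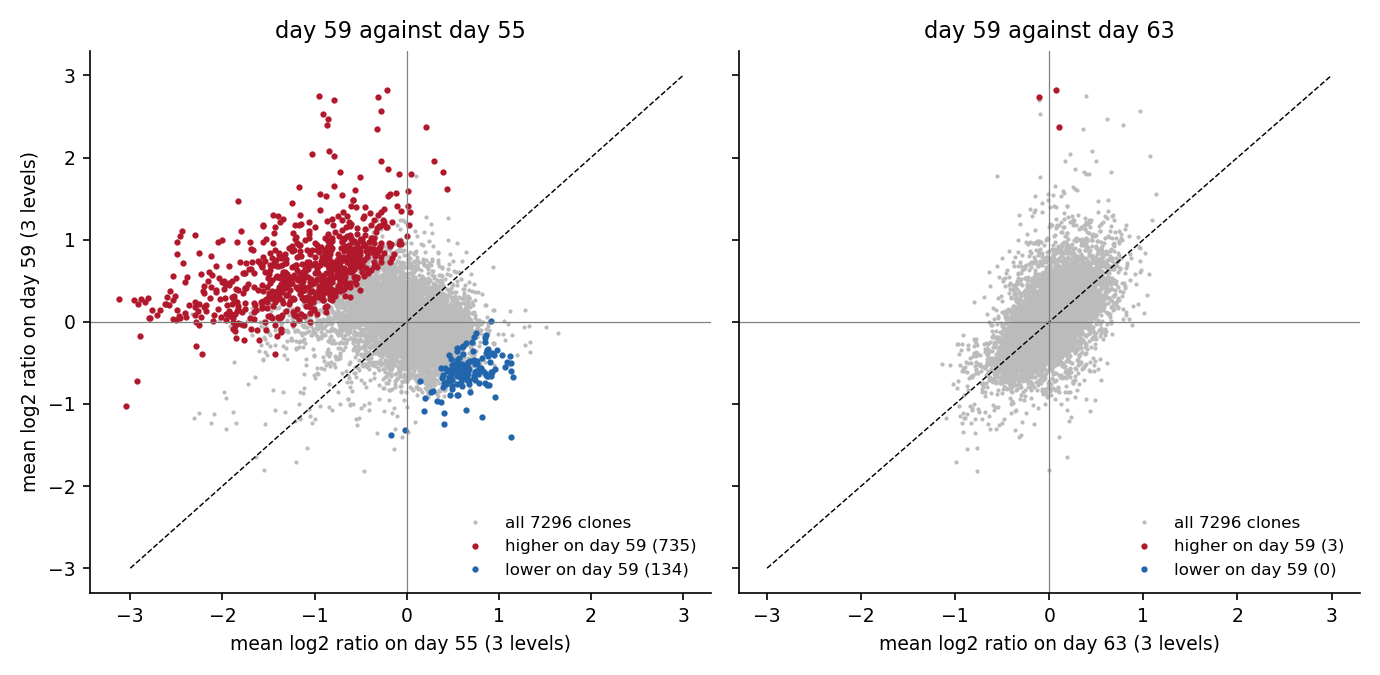
Mean log2 ratio over the 3 stress levels on day 59 (vertical axis) against day 55 and day 63 (horizontal axes) for all 7296 clones; coloured points passed the test of the difference, and the dashed line marks equal values. The 735 clones higher on day 59 than on day 55 lie mostly left of 0 and above it, whereas 3 clones stand apart from day 63.

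The calls were unevenly placed on the array. In the first 3 of the 12 rows of print blocks, 155 clones were higher and 39 lower of 1944, and in the last 3 rows 45 were higher and 84 lower of 1464. The median log2 ratio of all clones ran from 0.19 in row 1 to -0.41 in row 12. With a curve per print block, which removes the median of each block, the first 3 rows held 127 higher and 108 lower clones, and the last 3 rows held 45 and 23. The rows also differ in what was printed there. Clones with names in NL and a number made up 4608 of the 7296, of which 253 were higher and 99 lower, with a median of 0.07. Those with names in NL_ gave 50 higher and 42 lower of 1536, with a median of -0.10. Those with names in MK, printed in rows 9 to 12, gave 35 higher and 62 lower of 1152, with a median of -0.31. Within rows 9 and 10 the medians were -0.36 for MK and -0.15 for NL_ clones. With a curve per print block the MK median was -0.04, with 27 higher and 15 lower. The part of position and that of clone set was not tested further.

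All 76 plates, as the clone names give them, held at least 1 called clone. Plate NL9 held the most higher clones, with 20 higher and 1 lower of 96, followed by NL18 with 15 and 1 and NL26 with 14 and 1. Plate MK_PG11 ran the other way, with 1 higher and 11 lower. These plates were singled out after their counts were seen.

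**Figure D5:**
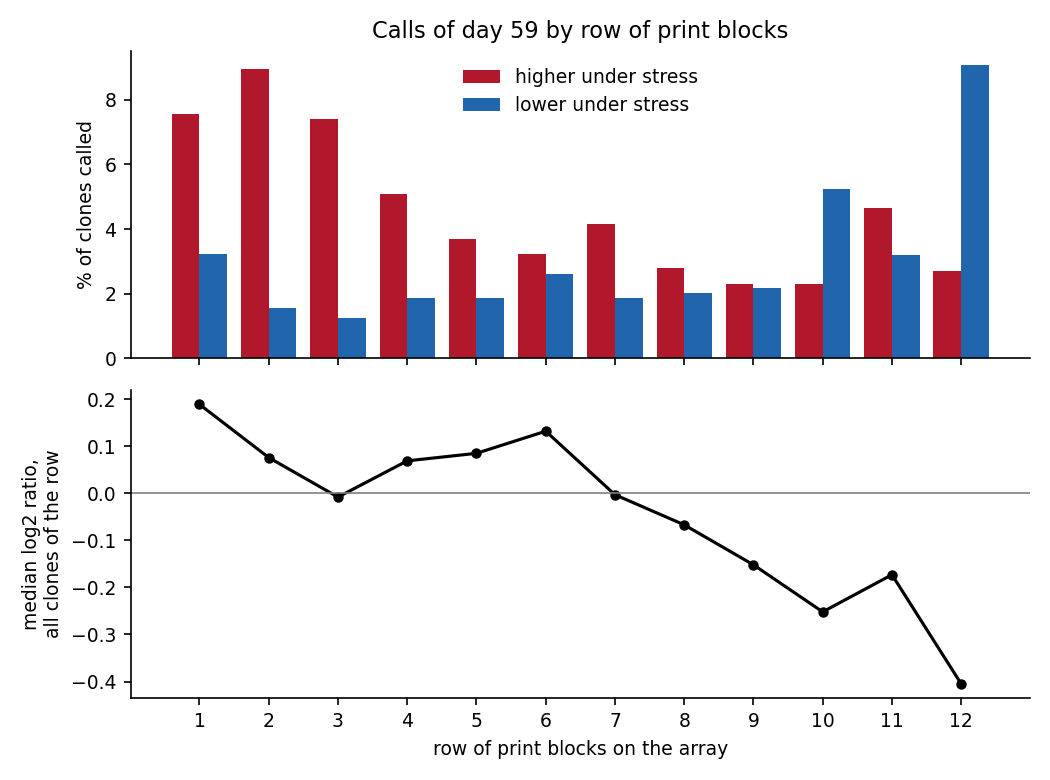
Share of clones called higher or lower under stress on day 59 (upper panel, percent) and median log2 ratio of all clones (lower panel) by row of print blocks, 1 to 12. Row 2 has the largest share of higher clones, 8.95%, and row 12 the largest share of lower ones, 9.07%, where the median is -0.41.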

How the data were processed

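The 3 arrays of day 59 and 20 arrays of the other days were read from the deposited files. Per the file headers, 21 of them are output of the QuantArray software (version 3), and the 2 of day 75 are short tables. The intensity columns used here hold raw linear spot intensities per the file headers, with the local background listed beside them and not yet subtracted. The authors also deposited a matrix of log2 ratios centred per spot within a stress level, which served as an alternative only and whose normalization the sources used here do not state.

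Each array has 15552 spots in 48 print blocks: 7296 clones in duplicate, 144 control spots and 816 empty spots. Background was corrected with normexp (offset 50) and 1 loess curve per array was removed with a span of 0.3 and 4 iterations, fitted to clone spots that the scanner software had not marked to be ignored. Duplicates were averaged. Normalised intensities printed for single clones come from the same ratios with brightness quantile-normalised over the 3 arrays. All clones passed a filter of 2 background SDs. The fits used limma 3.58.1 in R 4.3.3 (lmFit, eBayes, two-sided, Benjamini-Hochberg over all clones, threshold 0.05) and the data.table package, version 1.17.8. Day contrasts had day and stress level as factors. Figures were drawn with Python 3.11.15 and matplotlib 3.10.9. The fits were tested on simulated data. The number of arrays limits the precision.

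Clones are named by a rule: the 12 highest and 12 lowest called clones that were bright on all 3 arrays, the 4 brightest called, the 6 highest and 6 lowest called against the other days among bright ones, the 3 slopes of smallest p, and the 3 highest and 3 lowest called against days 55 and 63. The arrays, lists and rules were chosen with earlier results of these data known. Alternatives were no background correction, normexp with offset 0, print-tip loess, median centring, scaling between arrays, bright clones only, each array left out, array weights, other fits and the deposited table. Among the alternatives, leaving out day 71, day 75 and the mild arrays of both days was added after seeing the data.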

Additional observations from a re-analysis of the deposited data

Results flagged for a closer look

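The differences between day 59 and other days were tested as contrasts in limma, and each passes at an adjusted p under 0.05. Against the mean of the other days 698 clones differed, against day 55 869 clones and against day 63 3 clones.

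Against the mean of the other days, the log2 difference was 3.14 for NL_17_67, 3.09 for NL_9_68, 3.04 for NL24_E12, 2.99 for NL32_H10, 2.95 for NL12_H05 and 2.90 for NL53_H08. It was -1.84 for NL_20_74, -1.82 for NL6_G11, -1.77 for NL6_E07, -1.65 for NL14_D06, -1.52 for NL41_F12 and -1.38 for NL21_F10. Against day 55 it was 3.70 for NL24_E12, 3.54 for NL25_F05, 3.50 for NL35_A09, -2.53 for NL_20_74, -1.98 for NL14_D06 and -1.86 for NL21_F10. Against day 63 it was 2.85 for NL12_H05, 2.75 for NL_9_68 and 2.27 for NL53_H08.

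The 144 control spots of each array enter no comparison. In the control channel, 45.8% of them on the mild, 35.4% on the moderate and 44.4% on the severe array were brighter than 95% of the empty spots. Their median log2 ratio after normalization was -1.01, -0.50 and -0.53. What these spots bound was not tested.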

How the results depend on the processing

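Counts below are of clones called for day 59 against control, against the other days, against day 55 and against day 63, in that order. Without background correction they were 866, 1120, 1598 and 23. Scaling between arrays gave 1236, 1560 and 30 for the last 3, and median centring gave 1361, 1347 and 10. Print-tip loess gave 565 against day 55 and 21 against day 63. Among the 1365 bright clones, with fewer clones tested, the last 3 were 407, 424 and 9. Leaving out 1 array of day 59 gave 192 to 561, 175 to 366, 404 to 533 and 0 to 2. The fit over all days gave 148 for day 59. Against the other days, the test on day means gave 0, and leaving out the mild array of day 45 gave 847. The deposited table gave 1589, by a test of its centred values of day 59 against 0 on fewer clones. Against day 55, the 6 arrays of both days alone gave 1875, and without the mild arrays of both days the counts were 167 against day 55 and 0 against day 63. With no replicate block, that is without stress level in the fit, the last 3 were 637, 861 and 4.

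The slope was called for 0 clones under each of the 8 alternatives run. Leaving out an array leaves the slope no residual degree of freedom, so this was not run. The share of clones at 2-fold or more under mild, moderate and severe stress was 5.81%, 3.81% and 2.15% without background correction, and 4.30%, 2.67% and 1.62% with print-tip loess. It was 17.4%, 15.1% and 9.97% with median centring, and 5.46%, 7.84% and 7.28% with scaling. With offset 0 it was 10.7%, 7.13% and 3.69%, and among bright clones 14.4%, 10.9% and 6.59%.

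NL15_A07 (0.66), NL14_B05 (0.44) and NL49_F06 (0.59) changed sign under median centring. Of the other values for single clones, 556 kept direction and side of the threshold and 68 kept direction only. The 541 calls of day 59 had the same sign on all 3 arrays. Leaving out, weighting or scaling arrays, the fit over all days and the choice of bright clones could therefore not change a sign. Where the ratios were computed anew, all 541 kept it without background correction, with offset 0 and with print-tip loess, and 525 with median centring. The causes were not tested. Signal over background limits these arrays: 5931 clones were not bright on all 3.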
